A study of Homo sapiens with 4 samples.

Results

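The sites described here are the places where a MYOD peak was called in RD cells after SKP2 knockdown, no MYOD peak was called in control cells, and no H3K27ac peak was called in either. A peak of the knockdown MYOD list was taken when it lay on chromosomes 1 to 22, X or Y, when no control MYOD peak overlapped it by 1 bp or more, and when no peak of either H3K27ac list overlapped it. The rule found 2715 sites among the 8457 peaks of the knockdown MYOD list (32.1%), against 1086 sites of the mirror kind, control-only and without H3K27ac, among 5814 control MYOD peaks (18.7%). Of all knockdown MYOD peaks, 4730 (55.9%) had no overlapping control peak and 3969 (46.9%) had no H3K27ac peak, so the sites made up 57.4% of the knockdown-only peaks. Because the sites were chosen by these peak calls, their absence from the control list and from the H3K27ac lists is a definition and not a result.

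RD is an established human line derived from a rhabdomyosarcoma, a childhood tumor of muscle character, of the fusion-negative kind (FN-RMS). Cells infected with an shRNA vector against SKP2 (shSKP2, labelled SKP2 knockdown) were compared with cells infected with a non-targeting shRNA vector (shSCR, labelled WT). Chromatin fixed with formaldehyde and cut with micrococcal nuclease was immunoprecipitated with an antibody against MYOD or H3K27ac, with a Drosophila spike-in, and sequenced. Each of the 4 combinations was a single library of 1 cell line, so no comparison between shSKP2 and shSCR has a replicate check, and a difference between the peak lists cannot be told apart from a difference between libraries. The peak lists hold no measure of SKP2 itself, so its knockdown was not checked here. The knockdown lists were also longer than the control lists, with 8457 against 5814 peaks for MYOD and 38457 against 25356 for H3K27ac.

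MYOD is the basic helix-loop-helix factor that sets skeletal muscle identity. It binds DNA as a dimer with E proteins at a hexamer called the E-box, which is spelled CANNTG. One of the forms it is best known to bind is CAGCTG, which reads the same on both strands and is called the palindromic E-box below. The other is CAGGTG, the non-palindromic one, which on the opposite strand is written CACCTG. H3K27ac, acetylation of lysine 27 of histone H3, marks active enhancers and promoters, and MYOD is known to occupy many places that lack it. SKP2 is the substrate receptor of an SCF ubiquitin ligase that targets CDK inhibitors.

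The sequences below show what the sites look like at the letter level. All are 101 bases around the summit, the point of highest pileup, on the + strand of hg38, with both E-box hexamers in capitals and the rest in lower case. Sites between genes are named after the nearest protein-coding start site, which can be far off. The first 3, at chr13:76503939-76504039, at chr20:30556934-30557034 and upstream of CHGA at chr14:92863550-92863650, are the highest scoring of the sites with no palindromic E-box, apart from copies of a repeat. The next pair, upstream of ZFAND3 at chr6:37807828-37807928 and in intron 1 of CCM2 at chr7:45021771-45021871, hold the palindromic hexamer alone, and ZNF280B (exon 4, chr22:22488317-22488417) and NRCAM (intron 1, chr7:108442186-108442286) held both within 100 bp of the summit. The chr7:111677001-111677101 site has the highest score of the single-copy sites with neither, and the last pair, in intron 1 of RAB40B at chr17:82666024-82666124 and near TTLL2 at chr6:167409915-167410015, show the hexamer repeated in tandem.
chr13 site: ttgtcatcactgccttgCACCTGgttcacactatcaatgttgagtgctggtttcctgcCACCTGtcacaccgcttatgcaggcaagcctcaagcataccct
chr20 site: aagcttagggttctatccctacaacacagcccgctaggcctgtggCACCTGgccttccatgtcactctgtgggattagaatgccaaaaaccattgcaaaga
CHGA: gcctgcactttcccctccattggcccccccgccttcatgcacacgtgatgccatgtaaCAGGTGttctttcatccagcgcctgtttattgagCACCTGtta
ZFAND3: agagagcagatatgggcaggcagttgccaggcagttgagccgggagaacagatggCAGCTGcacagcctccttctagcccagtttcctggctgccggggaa
CCM2: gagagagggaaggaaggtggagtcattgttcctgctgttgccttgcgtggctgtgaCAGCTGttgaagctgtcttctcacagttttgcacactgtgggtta
ZNF280B: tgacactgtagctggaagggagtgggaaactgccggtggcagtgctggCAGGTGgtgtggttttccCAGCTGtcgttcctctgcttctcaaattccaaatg
NRCAM: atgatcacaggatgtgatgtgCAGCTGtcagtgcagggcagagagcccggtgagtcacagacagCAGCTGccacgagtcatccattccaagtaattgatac
chr7 site: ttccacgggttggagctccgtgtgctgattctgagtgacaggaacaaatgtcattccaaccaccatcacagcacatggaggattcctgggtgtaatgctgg
RAB40B: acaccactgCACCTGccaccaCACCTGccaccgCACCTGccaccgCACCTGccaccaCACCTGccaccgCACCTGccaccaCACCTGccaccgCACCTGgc
TTLL2: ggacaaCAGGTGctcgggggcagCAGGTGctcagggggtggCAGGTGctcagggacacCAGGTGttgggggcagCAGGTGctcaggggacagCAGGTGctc

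The sites were mostly weak peaks. Their fold enrichment over the local background, as the peak caller gave it, had a median of 4.67, with quartiles of 3.94 and 5.78 and a range of 2.49 to 19.7. The score, the −log10 of the peak caller's p, had a median of 8.59, and 1052 sites (38.7%) reached 10, while 191 (7.03%) lay under 5 and 29 had a q above 0.05. A typical site rested on 16 overlapping fragments at its summit (9 to 104) over a background of 2.63, and was 241 bp wide. The median fold of 4.67 stood beside 4.42 at the 2015 knockdown-only sites with H3K27ac, 6.61 at the 1254 sites that both MYOD lists shared without H3K27ac, and 4.70 at the 1086 control-only sites without H3K27ac. In strength the sites were thus like the control-only sites and weaker than the shared ones, as values of the contrast that chose them, and were given no test.

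Part of the list lay near the limit of what the control library could show. The lowest background in the knockdown MYOD list was 1.94 fragments, against 1.48 in the control list, a ratio of 1.31, and at the 3727 shared peaks the knockdown pileup was a median of 1.16 times the control pileup (quartiles 0.944 and 1.42). With pileup and background both divided by 1.31, 305 of the 2715 sites (11.2%, Wilson 95% interval 10.1 to 12.5) fell under a −log10 p of 4, the lowest score kept in the lists, so an equal signal in control cells would not have been called there. At the other end, 386 sites (14.2%, 13.0 to 15.6) would still have been called with 50% of the scaled pileup, against 667 of the 1254 shared sites without H3K27ac (53.2%). For the remaining sites a signal in control cells at 50% of the knockdown level could have gone uncalled. Intervals here and below cover counting error over sites only, never the spread between cultures, and library depths are not in the peak lists.

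At the edges of the rule, sites inside and peaks outside it lay a few bp apart in the measure that chose them. A site in SNPH, 8 bp from a control MYOD peak, had a 3.87-fold enrichment and one in NT5C2, 46 bp away, 4.47-fold. Just outside, a peak near PCSK1 with 8 bp of overlap had 3.90-fold and one near KTN1 with 16 bp had 4.30-fold. At the H3K27ac edge, sites in CDH13 (8.91-fold) and PPM1L (5.53-fold) adjoined a knockdown H3K27ac peak with 0 bp between them, and sites at DUSP4 and PLCB4 lay 1 and 3 bp from a control one, while peaks at KLHL25 (3.74-fold) and TAS2R14 (4.11-fold) were left out for 1 bp of overlap. Folds were alike on both sides of the MYOD edge. At the H3K27ac edge both peaks left out had lower folds than the CDH13, PPM1L and PLCB4 (5.84-fold) sites. Their folds were higher than that of the DUSP4 site (3.22-fold).

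E-boxes set the sites apart from their own surroundings. The palindromic hexamer was present near the summit, in the 100 bp on each side, in 1496 of 2715 sites (55.1%, 53.2 to 57.0), against 9.34% of 5395 windows of the same 201 bp taken 2 kb away on either side. The non-palindromic hexamer was there in 1406 sites (51.8%, 49.9 to 53.7), against 20.3% of the windows 2 kb away. For scale, 17.9% and 20.6% of 35116 RefSeq promoters of GRCh38.p14, each 300 bases long, held the palindromic and the non-palindromic hexamer. At least 1 of the 10 forms of CANNTG was found in 93.4% of sites and 65.7% of windows 2 kb away. The hexamers crowded at the summit, where the nearest palindromic one was a median of 15 bp away and the nearest non-palindromic one 16 bp, and 66.8% and 63.1% of the sites that held them had one within 25 bp.

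**Figure D1:**
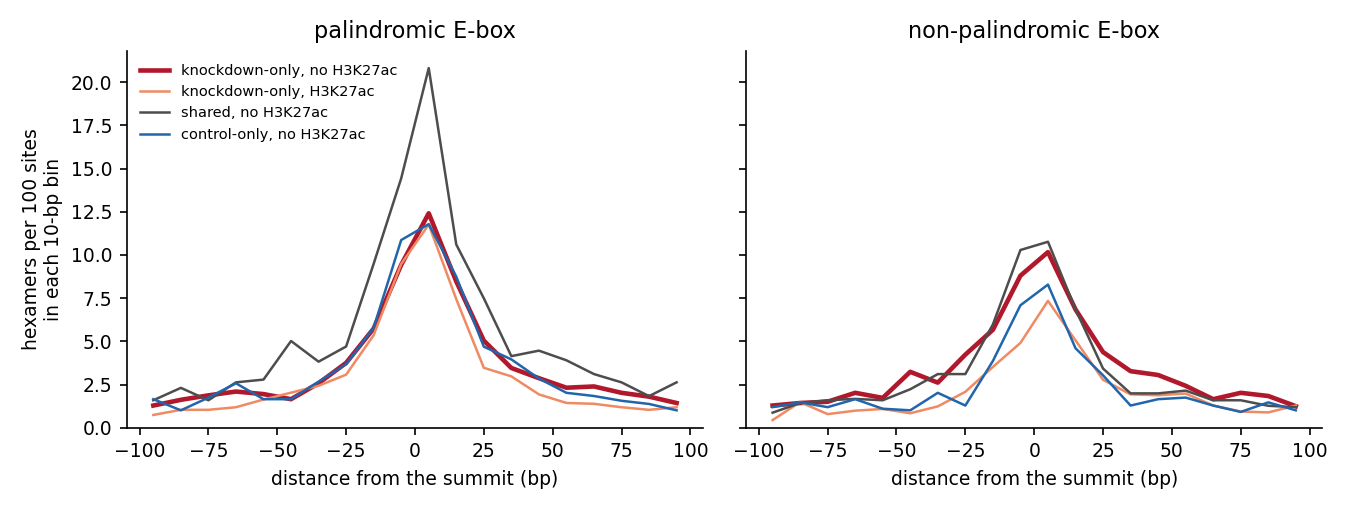
Number of E-box hexamers per 100 sites in each 10-bp bin (y axis) by distance from the summit in bp (x axis), for the palindromic form CAGCTG (left) and the non-palindromic form CAGGTG or CACCTG (right) in 4 classes of MYOD site. Both forms peak within 10 bp of the summit in every class, and on the right the knockdown-only sites without H3K27ac run close to the shared sites and above the other 2 classes near the summit.

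The form of the E-box differed from that of the other MYOD classes. At 51.8%, the non-palindromic hexamer was more frequent than in knockdown-only sites with H3K27ac (35.9%, a difference of 15.9 points, Newcombe 95% interval 13.1 to 18.7) and than in control-only sites without H3K27ac (41.3%, a difference of 10.5 points, 7.03 to 14.0). It was about as frequent as in shared sites without H3K27ac (51.5%, a difference of 0.271 points, −3.07 to 3.61). The palindromic hexamer behaved otherwise: 55.1% of the sites held it, against 71.2% of shared sites without H3K27ac (−16.1 points, −19.2 to −12.9), 54.8% of control-only ones (0.313 points, −3.17 to 3.82) and 50.8% of knockdown-only sites with H3K27ac (4.33 points, 1.46 to 7.20). This last difference turned to −1.81 points (−6.30 to 2.75) among sites of both classes with a −log10 p of 10 or more. At the same score limit the difference from shared sites shrank from −16.1 to −8.49 points (−12.4 to −4.52). The non-palindromic form as the only one of the pair was found in 806 sites (29.7%), more than in each of the other 3 classes, which had 23.9%, 23.05% and 25.6%, with differences of 5.77 (3.22 to 8.28), 6.64 (3.70 to 9.49) and 4.09 (0.922 to 7.14) points from knockdown-only marked, shared and control-only sites. These intervals treat sites as separate draws from single libraries.

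**Figure D2:**
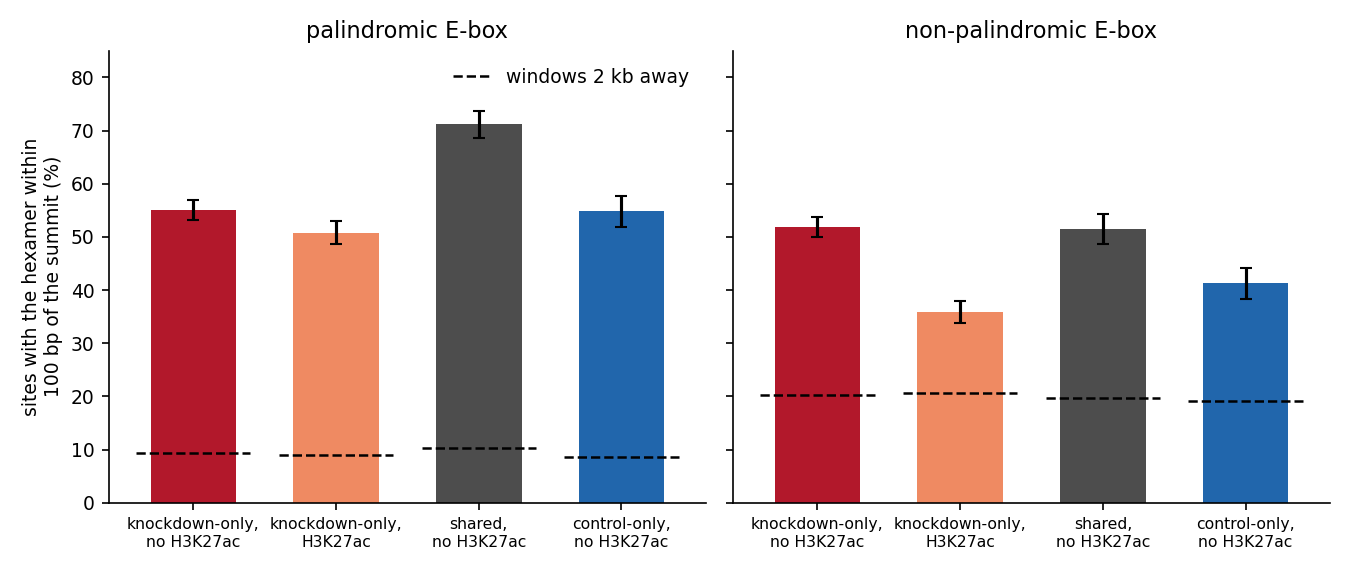
Share of sites in percent (y axis) with the palindromic (left) or non-palindromic (right) E-box hexamer within 100 bp of the summit in 4 classes of MYOD site (x axis), with Wilson 95% intervals as error bars and the share in windows 2 kb away as dashed lines. The knockdown-only sites without H3K27ac stand at 55.1% on the left, under the shared sites at 71.2%, and at 51.8% on the right, above the control-only sites at 41.3%.

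Peak strength was linked to both hexamers, and the order against control-only sites in the non-palindromic form was the same at each strength. Among the sites, the palindromic form was held by 36.5%, 50.2%, 59.0%, 63.0%, 70.5% and 67.9% in bins of −log10 p of 4 to 6, 6 to 8, 8 to 10, 10 to 15, 15 to 20 and 20 or more. The non-palindromic form was held by 40.9%, 47.4%, 57.1%, 56.6%, 57.5% and 60.7% of the sites in the same bins, and by 33.3%, 44.3%, 40.8%, 46.1%, 40.2% and 48.3% of control-only sites without H3K27ac. The sites lay above the control-only ones in all 6 bins for this form, whereas for the palindromic form no such order held, with 63.0% against 64.1% in the bin of 10 to 15. For the non-palindromic form the Wilson intervals overlapped in the bins of 4 to 6, 6 to 8, 10 to 15 and 20 or more. At 6 to 8 they were 43.7 to 51.2 against 38.3 to 50.4. Base composition also differed, with a median GC content of 53.7% against 49.3% in control-only sites, and the difference in the non-palindromic form was 7.24 points (1.69 to 12.7), 12.8 points (6.48 to 18.9) and 8.43 points (1.73 to 15.01) in sites of low (up to 47.8%), middle (48.3% to 57.2%) and high (57.7% or more) GC content. It was 10.1 points (6.46 to 13.8) outside promoters.

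**Figure D3:**
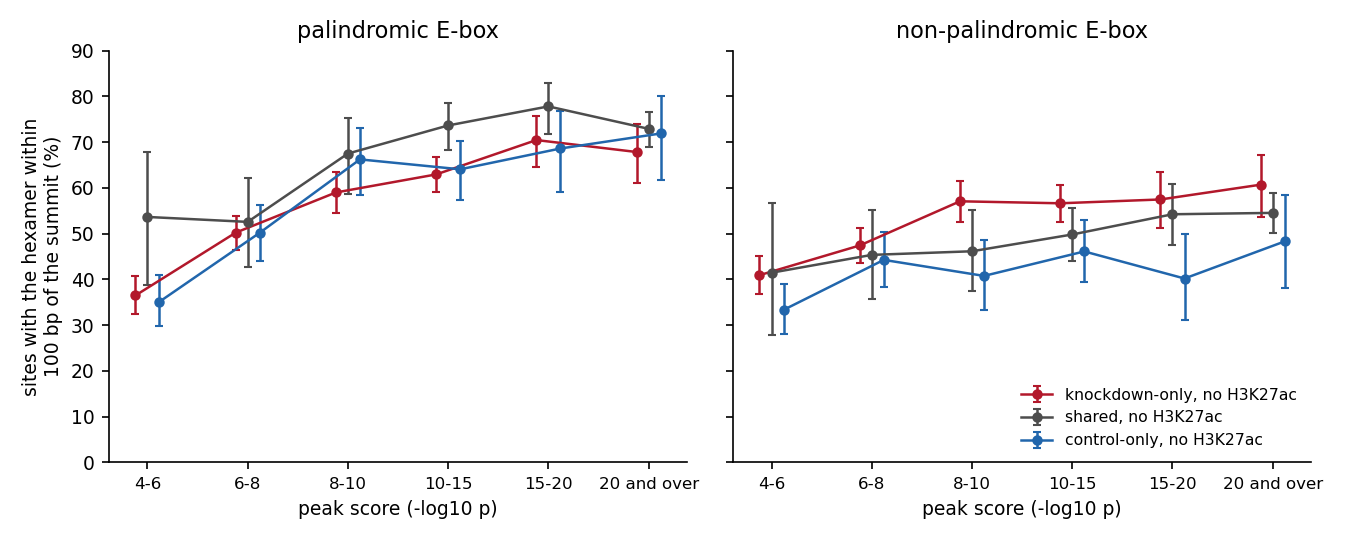
Share of sites in percent with each E-box hexamer (y axis, points with Wilson 95% intervals) by peak score in bins of −log10 p (x axis), for knockdown-only, shared and control-only MYOD sites without H3K27ac. On the right, the knockdown-only sites run from 40.9% to 60.7% and lie above the control-only sites in all 6 bins.

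Sites differed among themselves by how many of the hexamers they held. Both forms together were found in 600 sites (22.1%), against 11.96% of knockdown-only sites with H3K27ac, 28.5% of shared and 15.7% of control-only sites without it. The 600 sites had a median fold of 5.10 and 49.2% of them reached a −log10 p of 10, and the 896 sites with the palindromic form alone had a median of 4.89. The 413 sites with neither (15.2%) were weaker, with a median fold of 3.91 and 12.1% at a −log10 p of 10 or more. Neither form was found in 25.3% of knockdown-only sites with H3K27ac, 5.74% of shared and 19.6% of control-only sites without it. Counting copies, 40.1% of the sites held 2 or more hexamers, against 23.7%, 51.04% and 30.1% in the same 3 classes, and 95 sites held 4 or more.

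A few sites held long runs of the hexamer, of which the RAB40B and TTLL2 sequences above are examples. The RAB40B site, in intron 1 of this RAB-family GTPase gene, held 9 hexamers in 201 bp, 8 of them non-palindromic, and its 101 bases show CACCTG recurring every 12 bases. It had a 6.89-fold enrichment. Over all sites, 12 bp was the commonest spacing between neighbouring hexamers, found for 45 of 1601 neighbouring pairs, whose median spacing was 39 bp. The 12-bp pairs of the RAB40B run are counted among the 45. The commonest spacing was 16 bp in knockdown-only sites with H3K27ac, and 15 bp in shared and 14 bp in control-only sites without it. The TTLL2 site had 8 hexamers and a 7.08-fold enrichment, and a site near TESC had 8 and 4.63-fold. How short reads were placed in such repeats was not tested.

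The letters beside the hexamer were also counted. Read in both orientations together, ACAGCTGC made up 23.6% of 2003 palindromic hexamers and GCAGCTGC 16.4%. Around the non-palindromic form, which has a single orientation, ACAGGTGC made up 13.9% and GCAGGTGG 12.8% of 1878. The percentages of the 2 forms are therefore not on the same footing. Among other E-box forms, CAGATG was found in 19.9% of sites and 12.9% of windows 2 kb away, while CAAATG was at 11.05% of sites and 13.2% of windows.

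Motifs of factors that work beside MYOD in muscle cells were scarcer than E-boxes. RUNX motifs (TGTGGT) lay within 100 bp in 16.9% of sites (15.6 to 18.4) and in 13.5% of windows 2 kb away, against 20.8% of control-only sites without H3K27ac (a difference of −3.87 points, −6.73 to −1.14) and 11.9% of knockdown-only sites with H3K27ac (5.03 points, 3.01 to 7.01). The TEAD motif (GGAATG), for the partners of YAP and TAZ, was in 13.7% of sites and 11.2% of windows 2 kb away, also under the control-only sites (17.5%, a difference of −3.83 points, −6.51 to −1.30) and the shared sites (16.99%, −3.32 points, −5.83 to −0.931) and above knockdown-only sites with H3K27ac (11.2%, 2.50 points, 0.590 to 4.37). AP-1 motifs (TGANTCA) were in 9.39% of sites and 5.71% of windows, against 12.2% of control-only sites (−2.76 points, −5.09 to −0.614). The AP-1 differences from shared sites (11.0%) and from knockdown-only sites with H3K27ac (10.2%) had intervals that spanned 0. The MEF2 motif (CTA and TAG with any 4 bases between them), for the factors that cooperate with MYOD at muscle genes, was in 2.28% of sites and 2.84% of windows. The windows 2 kb away had a lower median GC content than the sites, 46.8% against 53.7%, which was not adjusted for. Each motif was counted on both strands, none contains a whole E-box hexamer although their ends can overlap one, and a match says only that the letters are in the window.

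Most sites lay away from promoters. Within 2 kb of a protein-coding start site in GENCODE 44 were 338 sites (12.4%, 11.3 to 13.7), against 41.1% of knockdown-only sites with H3K27ac, 11.8% of shared and 8.20% of control-only sites without it. Of the rest, 1149 (42.3%) lay in introns, 102 (3.76%) in exons and 1126 (41.5%) between genes, and the median distance to a start site was 32.2 kb, against 10.6 kb for knockdown-only sites with H3K27ac. The promoter sites had a median GC content of 66.2% and 14 CpG in 201 bp, and 47.9% of them held the palindromic and 51.2% the non-palindromic hexamer. Promoters were a smaller part of the stronger sites, at 14.1% for a −log10 p of 4 to 6 and 5.10% for 20 or more.

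The strongest promoter sites belonged to genes of diverse function. The highest score was upstream of ZNF491, a zinc finger gene, at chr19:11797578-11797812, with an 11.1-fold enrichment, 4 hexamers and only 43 bp between it and a knockdown H3K27ac peak. FAT2, an atypical cadherin, had a site at chr5:151592699-151593048 with 8.97-fold and no H3K27ac peak of the knockdown list within 93.1 kb. USP14, a proteasome-bound deubiquitinase, had 9.49-fold at chr18:158092-158456, HERC3, a HECT-domain ubiquitin ligase gene, 9.07-fold at chr4:88593094-88593634, and GAL3ST1, the sulfotransferase of sulfatide synthesis, 9.21-fold at chr22:30573584-30573799.

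Sequence copies played a small part. In 137 sites (5.05%, 4.28 to 5.93) at least 50% of the 32-base words of the 201-bp window occurred elsewhere in hg38, against 2.98% of knockdown-only sites with H3K27ac, 3.51% of shared and 8.20% of control-only sites without it. How reads were placed at such sites was not tested. The site with the largest fold, 19.7 at chr4:190179475-190179666 within the annotated DUX4 gene, is one of them, since DUX4 lies in an array of near-identical repeats and 94.1% of its words had other copies. Another, at chr4:49107311-49107521, had the highest pileup, 104 fragments, with no hexamer, 5.87-fold enrichment and 72.4% of its words found elsewhere.

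The name of the class, without H3K27ac, means that no H3K27ac peak overlapped the MYOD peak, and a minority of sites abutted one. An H3K27ac peak of either list lay within 200 bp of 498 sites (18.3%, 16.9 to 19.8), against 546 shared (43.5%) and 339 control-only (31.2%) sites without H3K27ac. Another 204 sites had one farther off but within 1 kb, and 2013 had none within 1 kb. The knockdown list alone supplied the nearby peak at 392 sites, the control list alone at 41 and both lists at 269. The 498 abutting sites were somewhat stronger, with a median fold of 5.21 against 4.28 for the 204 sites. It was 4.49 at 1 to 10 kb, 4.64 at 10 to 100 kb and 4.78 over 100 kb. The palindromic hexamer was held by 62.4% of the 498, against 46.1%, 55.1%, 53.3% and 56.0% in those other bins, in the same order. In 101 sites (3.72%) a knockdown H3K27ac peak lay within 500 bp on both sides, as at 214 shared (17.1%) and 121 control-only (11.1%) sites. Peak lists give no acetylation level below the calling threshold, so absence of a peak is not absence of the mark.

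Measured over all sites, the abutting ones included, H3K27ac lay farther off than at shared and control-only sites without it. The nearest knockdown H3K27ac peak was a median of 12.2 kb away, against 1.74 kb for shared and 4.78 kb for control-only sites without H3K27ac, and the nearest control H3K27ac peak 27.8 kb, against 9.83 kb and 10.96 kb. These medians include the abutting sites, which were 18.3%, 43.5% and 31.2% of the 3 classes. Of 2013 sites with no H3K27ac peak within 1 kb, 610 had one at 1 to 10 kb and 1144 at 10 to 100 kb. For shared sites these were 249 and 322 of 624, and for control-only sites 290 and 320 of 660. Neither list had a peak within 10 kb of 1402 sites (51.6%), against 29.9% of shared and 34.1% of control-only sites, or within 100 kb of 258 sites (9.50%), against 4.23% and 4.60%. The order of the 3 classes was the same in both H3K27ac lists. It differed with peak strength: at a −log10 p of 20 or more an H3K27ac peak lay within 1 kb of 35.7% of the sites (29.3 to 42.6), against 56.1% of shared (51.8 to 60.4) and 66.3% of control-only sites (56.0 to 75.3), and at 4 to 6 of 18.7%, 51.2% and 24.7%. Since H3K27ac lists took part in the rule, these distances are a description. Control MYOD peaks were far as well, at a median of 89.2 kb, with 39 sites (1.44%) having one within 1 kb.

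**Figure D4:**
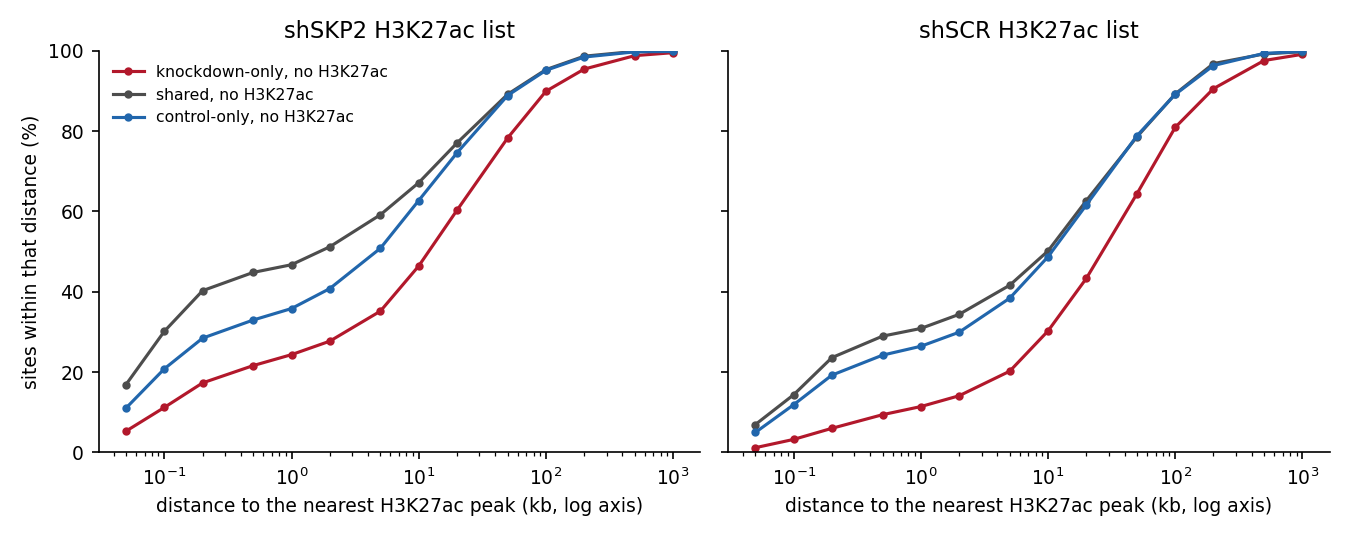
Cumulative share of sites in percent (y axis) by distance in kb to the nearest H3K27ac peak (x axis, log scale) of the shSKP2 list (left) and the shSCR list (right), for knockdown-only, shared and control-only MYOD sites without H3K27ac. The knockdown-only sites lie lowest from 0.05 to 100 kb in both lists, with 46.4% within 10 kb of a knockdown H3K27ac peak against 67.1% of shared and 62.7% of control-only sites.

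The 10 sites of highest score showed both kinds. First was a site in exon 4 of ZNF280B, a zinc finger gene, at chr22:22488263-22488494, with a pileup of 88 fragments, 16.8-fold enrichment and a −log10 p of 81.6. It lay 29 bp from a knockdown and 18 bp from a control H3K27ac peak. Sites in intron 1 of NRCAM, a neuronal cell adhesion gene (12.4-fold), in intron 4 of RBFOX1, a splicing factor gene of neurons and muscle (9.55-fold), and in intron 1 of CCM2, a scaffold protein gene mutated in cerebral cavernous malformation (11.6-fold), likewise lay 36, 16 and 1 bp from a knockdown H3K27ac peak. The CHGA site (12.03-fold), upstream of the gene of the secretory granule protein chromogranin A, and the ZFAND3 site (10.2-fold) lay 30.4 kb and 10.7 kb from one. Of the 10, 5 thus had a knockdown H3K27ac peak within 200 bp, among them the chr13 site, at 115 bp with 15.7-fold enrichment.

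Of the strong sites with neither hexamer, the chr7:111676899-111677178 site had a 9.31-fold enrichment, a −log10 p of 29.7 and no knockdown H3K27ac peak within 114.5 kb. Sites near PRPF4B at chr6:3960867-3961196 (9.80-fold) and near GNAS at chr20:58822296-58822648 (8.06-fold) were single-copy too. They lay 47.7 kb and 69.5 kb from a knockdown H3K27ac peak.

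The genes beside the sites were read against all protein-coding genes. A site lay in the gene or within 10 kb for 2170 of 20007 protein-coding genes (10.8%), and 1300 genes held one inside, of which 145 held 2 or more. Knockdown-only sites with H3K27ac touched 11.04% of genes, shared sites without it 5.38% and control-only sites without it 4.20%. The lists of genes below were written with earlier results of these data known, so their counts describe the sites and are given no test. Long genes can hold more sites by length alone. The median span of a gene with 10 kb on each side was 64.4 kb for the myogenic regulators and 60.3 kb for the genes of fusion, neuromuscular junction and calcium handling, against 47.5 kb for all protein-coding genes, and 37.1 to 45.8 kb in the other 8 lists.

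Among 28 myogenic regulators, 7 had a site, against 6 for knockdown-only sites with H3K27ac, 5 for shared and 3 for control-only sites without it. Among them were EYA1, a transcriptional co-activator of early myogenesis, MSTN, the muscle growth inhibitor myostatin, RUNX1, TEAD1 and TEAD4 with 2 sites each, and SMARCD3, a chromatin remodelling subunit that binds MYOD. The RUNX1 site, at chr21:35227670-35228104, had a 7.78-fold enrichment, 3 non-palindromic hexamers and a knockdown H3K27ac peak 45 bp away. The MSTN site had 6.13-fold, but every 32-base word of its window had other copies. MYOD1 and MYOG had none of the sites within 10 kb. The 7 of 28 genes stood beside 10.8% of all genes. The shared cases were 17.9% and the control-only cases 10.7% of the 28, beside 5.38% and 4.20% of all genes. For knockdown-only sites with H3K27ac it was 21.4% beside 11.04%. A share above that of all genes was thus found in each class and was not particular to the sites.

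Sarcomere genes had a site in 7 of 48 cases (14.6%) and genes of fusion, neuromuscular junction and calcium handling in 8 of 45 (17.8%), against 9 and 9 for knockdown-only sites with H3K27ac, 6 and 6 for shared and 1 and 7 for control-only sites without it. The control-only cases are 2.08% of the 48 and 15.6% of the 45 genes, where 4.20% of all genes had such a site. The shared cases are 12.5% of the 48 and 13.3% of the 45 genes, beside 5.38% of all genes. The sarcomere genes with a knockdown-only site without H3K27ac included MYLK2, the skeletal myosin light chain kinase gene (2 sites, the higher at chr20:31812431-31812625 with 7.19-fold). MYH3, embryonic myosin heavy chain, and the calcium-binding troponin C genes TNNC1 and TNNC2 were others. SRL, sarcalumenin of the sarcoplasmic reticulum, had 2 sites, the higher in intron 1 with 7.44-fold and 2 palindromic hexamers. A DYSF site, at the gene of the membrane repair protein dysferlin, had 6.58-fold and lay 132 bp from a knockdown H3K27ac peak. In MYBPH, which encodes myosin binding protein H, the site was in intron 3 at chr1:203172357-203172673, with 3.26-fold enrichment, 3 hexamers, a control MYOD peak 972 bp away and a knockdown H3K27ac peak 255 bp away.

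Cell cycle genes stood near the background, with 3 of 34 (8.82%). CDKN1A, which encodes the CDK inhibitor p21, had 1 weak site at chr6:36669135-36669355, −9420 bp from its start site (negative distances lie upstream), with a 2.95-fold enrichment, a −log10 p of 4.61 and 14 fragments. No site lay within 10 kb of CDKN1B or CDKN1C, the genes of p27 and p57, or of SKP2 itself. E2F2, a transcription factor of cell cycle entry, had the highest score of the list in intron 1 (chr1:23525912-23526188, 6.17-fold), with a control MYOD peak 627 bp away. CDK6 also had a site.

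Genes that hold back muscle differentiation or mark progenitors had a site in 9 of 36 cases, against 5 for knockdown-only sites with H3K27ac, 7 for shared and 5 for control-only sites without it. They were the Notch receptors NOTCH1 and NOTCH3, the ligand DLL1 (2 sites) and the Notch effector HEY1, the MYOD antagonist ID3, the bHLH repressor MSC (2 sites), ZEB2, and the MEF2-binding deacetylases HDAC4 (2 sites) and HDAC5. The site within 10 kb of NOTCH1, at chr9:136488626-136489038, was nearer to another start site, that of SEC16A (−5825 bp). It had 53 fragments, a 9.08-fold enrichment and 2 non-palindromic hexamers, and lay 4693 bp from a knockdown H3K27ac peak. The higher MSC site had 5.93-fold. The 9 of 36 genes stood beside 10.8% of all genes. The shared cases were 19.4% and the control-only cases 13.9% of the 36, beside 5.38% and 4.20% of all genes. For knockdown-only sites with H3K27ac it was 13.9% beside 11.04%. Here too a share above that of all genes was found in each class.

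Genes of other lineages were touched as well. Of 28 neuronal and glial genes, 8 (28.6%) had a site, beside 10.8% of all protein-coding genes. Knockdown-only sites with H3K27ac touched 4 of the 28 (14.3%), beside 11.04% of all genes. Shared sites without it touched 2 (7.14%), beside 5.38%, and control-only ones 0, beside 4.20%. The 8 genes were RBFOX3, SYT1, MAP2, TUBB3, GRIA2, NEUROD1, GFAP and MBP. Of these 8, 6 scored under a −log10 p of 10, and the highest was in MAP2, the dendritic microtubule protein gene (intron 13, chr2:209724538-209724749, 7.68-fold). The median span of 37.1 kb was that of all 28 genes of this list, and the spans of the 8 with a site were not compared. Cardiac and smooth muscle genes had a site in 3 of 26 cases (11.5%). Blood and endothelial genes (2 of 22) and epithelial and liver genes (2 of 22) each stood at 9.09%. These shares were near the 10.8% of all genes. Housekeeping genes had 1 of 28 (3.57%, ACTB), against 8 of 28 (28.6%) for knockdown-only sites with H3K27ac.

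**Figure D5:**
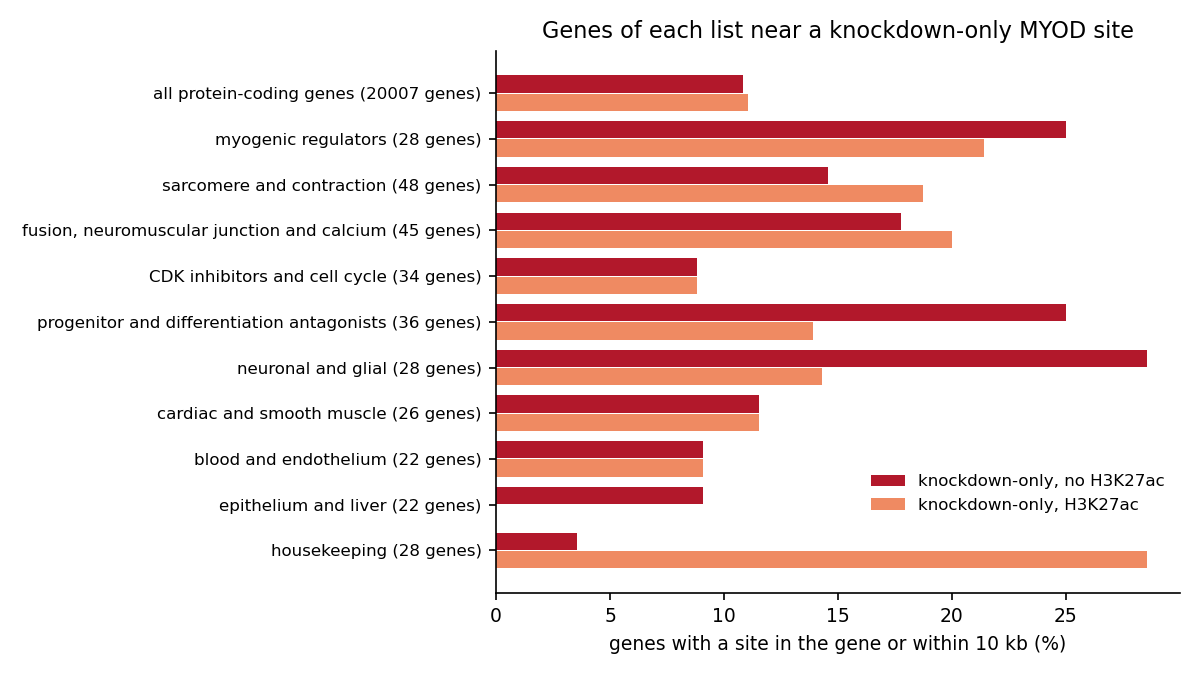
Share of genes in percent with a site in the gene or within 10 kb (x axis) for all protein-coding genes and 10 gene lists (y axis), for knockdown-only MYOD sites without H3K27ac and knockdown-only sites with H3K27ac. The sites without H3K27ac range from 3.57% of housekeeping genes to 28.6% of neuronal and glial genes around a background of 10.8%.

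Most sites had no other site close by, but their density differed between chromosomes. The nearest other site was a median of 198.0 kb away, and 141 sites (5.19%) had another within 12.5 kb. For neighbours of their own class this share was 6.15% of knockdown-only sites with H3K27ac, 3.43% of shared and 3.78% of control-only sites without it. The classes differ in number of sites, and no random spacing was set beside them. Chromosome Y held 1 site, the only knockdown MYOD peak there. Per 10 Mb of the other chromosomes, 19, 20 and 17 held the most, with 20.1, 18.5 and 17.1 sites, and X and 13 the fewest, with 1.41 and 1.84. As a share of the knockdown MYOD peaks of each of these chromosomes the sites ranged from 26.8% on chromosome 19 to 41.5% on chromosome 15, around the 32.1% of the whole list. The gene that held most was GSE1, a chromatin co-repressor gene of 506.7 kb, with 6 sites among 14 knockdown MYOD peaks, followed by KCNMA1, the BK potassium channel gene, with 5 of 7 and PALM2AKAP2 with 5 of 6. Their folds ran from 3.28 to 6.13, where the upper quartile over all sites was 5.78.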

How the data were processed

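ChIP-seq was done for MYOD and H3K27ac in RD cells with shSKP2 or shSCR, with 1 library for each of the 4 groups. The authors aligned reads to GRCh38 with BWA 0.7.17 and Drosophila spike-in reads to dm3, and called narrow peaks per library with MACS3 against input, keeping duplicates, then removed spurious regions, so replicates were neither made nor pooled. The stated p threshold was 1e-05, whereas each of the 4 deposited lists goes down to a −log10 p just above 4. The role of the spike-in in peak calling is not given in the sources used here. The deposited columns used were the fold over local background (a linear ratio), the −log10 p, the −log10 q and the summit offset in bp. The deposited integer score column served only as a check, and signal tracks were not used here.

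From these, sites were classed by overlap of 1 bp, with peaks on other contigs left out. The pileup and background behind each peak were recovered by solving the fold, as (pileup + 1)/(background + 1), and the Poisson p together, which returned whole pileups within 0.001 of the deposited −log10 p for every peak. Hexamers were counted on both strands in hg38 within 100 bp of the summit, and in windows 2 kb away. Positions came from GENCODE 44 canonical protein-coding transcripts. Copies were found with 32-base words. Shares carry Wilson and differences Newcombe 95% intervals. With 1 library per group no test was run. Overlap, recovery and interval code was tested on simulated data. Work used Python 3.11.15, numpy 2.4.6, pandas 2.3.3 and scipy 1.17.1.

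The sites, the gene lists and the comparisons were chosen with earlier results of these data known. Named sites were the 10 of highest score, the 5 highest with neither hexamer, the 5 with most hexamers, the 5 highest at promoters, up to 2 of each gene list, those at the edges of the rule and those at genes the study centres on. Alternatives changed the score threshold, list length, overlap, H3K27ac distance, window, promoter distance and scaling. A few sites at genes of these lists are not reported here.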

Additional observations from a re-analysis of the deposited data

How the results depend on the processing

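No paired analysis was possible because each group had 1 library, and none could be left out. The number of sites, 2715, was 1052 with knockdown MYOD peaks of −log10 p of at least 10 and 1500 with the knockdown list shortened to the control list's length. It stayed between 2013 and 2887 under the other 4 member rules. The share with the palindromic hexamer, 55.1%, was 65.7% for peaks of −log10 p 10 or more, 57.1% with all lists at 5 or more, 63.7% with the shortened list and 45.8% with 50 bp on each side. The share with the non-palindromic hexamer, 51.8%, was 57.6% and 57.7% for peaks of −log10 p 10 or more and with the shortened list. The promoter share, 12.4%, was 9.32% and 19.8% with promoters of 1 and 5 kb, and 8.27%, 10.1% and 8.99% for peaks of −log10 p 10 or more, with the shortened list and with no H3K27ac peak within 1 kb. The multicopy share, 5.05%, was 3.90% with only peaks at a −log10 p of 10 or more. The share of sites below the control library's calling limit, 11.2%, was 4.83% with the pileup ratio and 28.3% with a threshold of 5.

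With a −log10 p of at least 10 in both classes, the difference from knockdown-only sites with H3K27ac in the palindromic form was −1.81 points (−6.30 to 2.75) in place of 4.33, so its direction reversed and its interval spanned 0. The difference from shared sites without H3K27ac in the palindromic form shrank to −8.49 points (−12.4 to −4.52), in place of −16.1. The other differences from shared sites became 4.45 points (0.148 to 8.73) for the non-palindromic form, in place of 0.271, and −2.44 points (−5.01 to 0.0977) for promoters, in place of 0.647. The cause was not tested. The difference from control-only sites without H3K27ac in the non-palindromic form kept its sign in all 7 alternatives, from 7.24 to 12.8 points, each with an interval above 0; these were chosen after seeing the data, as were the multicopy measure and the distances. The median distance to a knockdown H3K27ac peak, 12.2 kb, was 27.3 kb with H3K27ac peaks of −log10 p of at least 10. The planned repeat share by soft-masking was not run, since the reference used was not masked.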

Other observations

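The HOX genes, which set position along the body axis, were looked at after the sites had been seen. Of 39 HOX genes, 13 (33.3%) had a site in the gene or within 10 kb, beside 10.8% of all protein-coding genes. Knockdown-only sites with H3K27ac touched 8 (20.5%), beside 11.04% of all genes. Shared and control-only sites without it each touched 1 (2.56%), beside 5.38% and 4.20%. Because the genes are packed closely, the 13 genes rested on 5 sites and the 8 genes on 4, so that by sites the classes stood at 5 against 4. The highest lay near HOXB7 at chr17:48618535-48618835, with an 8.05-fold enrichment, a −log10 p of 19.98, 1 palindromic hexamer and no knockdown H3K27ac peak within 6391 bp. The HOXA cluster held 3 of the 5, of which the HOXA3 promoter site at chr7:27150732-27151038 had 4.56-fold with 21 CpG in 201 bp, and those at HOXA7 (3.03-fold) and HOXA9 (3.12-fold) had neither hexamer.

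Other gene families differed. Of 516 genes with ZNF symbols, 28 (5.43%) had a site, beside 10.8% of all protein-coding genes. Knockdown-only sites with H3K27ac touched 59 (11.4%), near their 11.04% of all genes. Shared and control-only sites without it each touched 13 (2.52%), beside 5.38% and 4.20% of all genes. Of 53 clustered protocadherin genes, 0 had a site, as in each of the other classes. Of 416 olfactory receptor genes, 1 (0.240%) had one, against 0 for knockdown-only sites with H3K27ac, 1 for shared and 0 for control-only sites without it. The densest 100-kb window lay in the keratin-associated protein cluster on chromosome 17, where 5 of the 6 knockdown MYOD peaks between the summits at 41118121 and 41167648 were such sites, at KRTAP4-11, KRTAP4-12, KRTAP4-6, KRTAP4-4 and KRTAP4-3. Their folds ranged from 3.94 to 7.68, all 5 held a hexamer, and 2 of them lay in windows made mostly of words with other copies.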
